A study of Mus musculus with 16 samples.

Results

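Chromatin remodelers are enzymes that spend ATP to slide, evict or exchange nucleosomes, and many act in large complexes, which are grouped into families. The BAF and PBAF complexes (SWI/SNF family) contain Brg1. The other families are ISWI, which mostly spaces nucleosomes, the CHD proteins with their chromodomains, NuRD, which joins a CHD ATPase to histone deacetylases and to proteins that bind methylated DNA, and the INO80, SRCAP and TIP60 complexes, which exchange histone variants. The genes described here are 40 remodeler genes outside the SWI/SNF family. They comprise 8 ISWI genes, 7 CHD genes outside NuRD, 10 NuRD genes, 12 genes of the INO80, SRCAP and TIP60 complexes and 3 other SNF2-type ATPases. All 40 were found by symbol in the GENCODE annotation of GRCm38 (the mm10 build), among 21951 protein-coding genes.

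The data are ATAC-seq peak lists of mouse splenic B cells. In this assay the Tn5 transposase cuts accessible DNA, so a peak marks open chromatin and does not measure the RNA or protein of the gene beside it. All mice were C57BL/6 and carried CD23-Cre, a recombinase expressed from the mature B cell stage on. In the 4 Brg1fl/+ libraries 1 allele of Smarca4, which encodes Brg1, was floxed, and in the 4 Brg1fl/fl libraries both alleles were, so the controls also carried Cre and lost an allele. B cells had been isolated by depletion of CD43+ cells and cultured with LPS at 10 μg/mL and IL-4 at 20 ng/mL. The sample labels give 72 hours of this treatment, whereas the series' design gives 96 hours. Each library was made from 50000 cells, and the labels used here give neither the age of the mice nor the number behind each genotype, so p-values measure the spread between these libraries, which may be technical. Over 3977 regions in all 8 lists, the fragments at the summits differed between libraries of the same genotype by 0.756 to 1.19 times the variance that counting alone gives, and between genotypes by 0.999 to 1.81 times. The libraries of a genotype thus varied little beyond counting error, and whether they came from separate mice could not be checked.

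The lists held 6271 to 14614 peaks called one library at a time, and joined into 16566 regions. The lowest expected background at a summit, which grows with depth, was 0.541 to 1.30 fragments in Brg1fl/+ and 0.783 to 1.67 in Brg1fl/fl libraries. Where a list lacks a region, no peak was detectable at the depth of that library, and the chromatin there may still be open. The cell type label was checked at promoters of marker genes. Of 10 B cell markers, 7 had a promoter region. Those of Cd74, Ms4a1 and Pax5 were in all 8 lists and that of Ebf1 was in 6. Blnk, Cd79a and Spib were in 1 list each, and Cd22 and Cd79b had none in the promoter window used here. Among markers of other cells, 1 of 9 T cell genes (Lck) and 1 of 7 myeloid genes (Cebpa) had a region, each in 1 list, and none of 3 NK or 4 erythroid genes had one. The deleted allele cannot be checked with these peaks.

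A region was assigned to a member when its centre lay in the promoter window of an annotated transcription start site (1000 bp upstream, 100 bp downstream). The 40 genes have 318 such sites (2 to 27 per gene). This gave 35 promoter regions at 30 of the 40 genes (75.0%, where 43.1% of all protein-coding genes had one). For 21 genes (52.5%) a promoter region was in all 8 lists, against 20.6% of protein-coding genes. Counted by region, 22 of 35 (62.9%) were in all 8 lists and 13 were in 2 to 7, and 42.7% of all 9330 promoter regions were in all 8. No test was run on the members as a list.

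The sequences below are the stretches of 120 bases that hold the summits of 8 of these regions, those with the smallest p-values in the comparison of genotypes (Smarca5, Chd6, Ino80), those with the highest folds of their families (Chd2, Ep400 and the upstream promoter of Gatad2a, with the second Gatad2a promoter beside it), and a promoter listed in Brg1fl/+ libraries alone (Mta1). They were read from the RefSeq sequence of GRCm38 (mm10), 5′ to 3′ on the strand of the gene and outside annotated exons. Capitals mark matches, on either strand, to the searched motifs NFY (CCAAT), SP/KLF (GGGCGG) and CRE (TGACGTCA). Positions are chr8:80739498-80739617 (minus strand) for Smarca5, chr2:161109137-161109256 (minus) for Chd6, chr2:119477876-119477995 (minus) for Ino80, chr7:73537850-73537969 (minus) for Chd2, chr5:110770829-110770948 (minus) for Ep400, chr8:69996385-69996504 (minus) for the upstream promoter of Gatad2a, chr8:69974334-69974453 (minus) for its downstream promoter and chr12:113098087-113098206 (plus) for Mta1.
Smarca5: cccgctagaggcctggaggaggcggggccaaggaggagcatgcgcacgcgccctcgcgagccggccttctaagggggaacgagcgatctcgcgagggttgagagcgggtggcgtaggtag
Chd6: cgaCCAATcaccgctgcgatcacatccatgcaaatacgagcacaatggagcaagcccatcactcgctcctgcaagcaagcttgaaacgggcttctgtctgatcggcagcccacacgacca
Ino80: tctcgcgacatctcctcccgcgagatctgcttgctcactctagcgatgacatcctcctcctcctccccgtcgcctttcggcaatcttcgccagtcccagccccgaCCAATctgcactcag
Chd2: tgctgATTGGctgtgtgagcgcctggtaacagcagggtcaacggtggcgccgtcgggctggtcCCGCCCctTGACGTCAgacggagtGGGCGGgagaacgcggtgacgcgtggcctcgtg
Ep400: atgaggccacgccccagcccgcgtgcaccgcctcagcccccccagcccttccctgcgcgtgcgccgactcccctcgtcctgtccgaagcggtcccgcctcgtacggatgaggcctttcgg
Gatad2a upstream: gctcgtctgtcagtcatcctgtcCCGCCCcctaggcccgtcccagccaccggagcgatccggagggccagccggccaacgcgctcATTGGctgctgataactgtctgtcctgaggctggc
Gatad2a downstream: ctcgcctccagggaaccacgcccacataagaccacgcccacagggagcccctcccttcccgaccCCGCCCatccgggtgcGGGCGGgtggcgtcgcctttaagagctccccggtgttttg
Mta1: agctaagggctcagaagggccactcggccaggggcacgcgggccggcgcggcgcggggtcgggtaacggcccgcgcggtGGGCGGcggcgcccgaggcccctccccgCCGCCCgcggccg

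The Chd2 stretch holds all 3 of these motifs, with the NFY match apart from the SP/KLF and CRE matches. The upstream Gatad2a promoter holds NFY and SP/KLF matches, and the Smarca5 and Ep400 stretches hold no match to any searched motif. Within 100 bp of the summit, over all 35 member regions, an SP/KLF match was present in 24 (68.6%, against 67.7% of 9328 promoter regions) and an NFY match in 14 (40.0% against 33.4%). An ETS match (CCGGAAG) was present in 5 regions, those of Actr6, the downstream promoter of Gatad2a, Ino80c, Mbd2 and Mta2 (14.3% against 17.6%). A CRE match was present at Chd2 and Chd7 (5.71% against 3.57%). A single member region each held E2F (TTCCCGC, Hells, 7.27% of all promoter regions), E-box (CACGTG, Bptf, 8.84%) and YY1 (AAGATGGCG, Srcap, 3.04%) letters. No member region held NRF1 (GCGCATGCG, 3.90% of all promoter regions) or AP-1 (TGANTCA, 2.43%) letters in this window. Both strands were searched and a base could count for more than one motif. The median GC content was 65.7% in member regions and 66.7% in all promoter regions, and the median ratio of observed to expected CpG was 0.910 and 0.865.

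The summit of a peak is the base with the most fragments, and that of a region is the median position over the libraries listing it. The region's summit lay upstream of the nearest start site of the member in 24 regions and downstream in 11. It was within 100 bp in 24, and the median distance was 66 bp. The farthest were a Chd7 region with a summit 692 bp upstream and Atrx with one 306 bp downstream. By annotation, with exons of any gene counted first, 14 summits were in an exon, 16 upstream of the gene and 5 in an intron. The exons at Gatad2b, Srcap and a region of Chd9 were those of other genes (4930537H20Rik, 1700008J07Rik and Gm6658). That Gatad2b summit was upstream of Gatad2b itself. Regions were 319 to 1139 bp wide, with a median of 712 bp against 600 bp for all promoter regions. The Chd2 region (chr7:73537694-73538122, minus strand) lay inside an intron of the gene, 289 bp upstream of the nearest Chd2 start site, and contained none of the 17 annotated start sites.

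**Figure D1:**
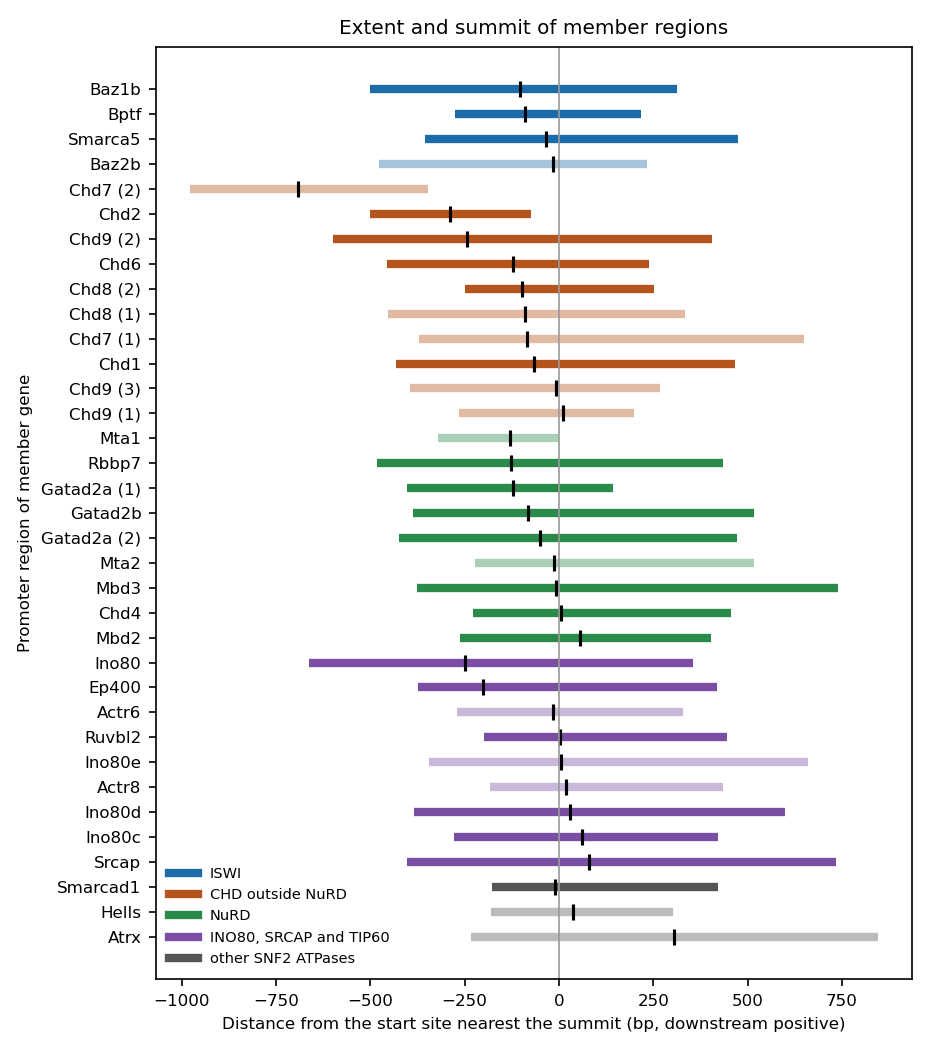
Each bar is 1 of the 35 member regions, drawn from its start to its end relative to the start site nearest its summit (x axis, bp, downstream positive), with the summit as a black tick, colour for the gene family and paler bars for the 13 regions missing from at least 1 list. Numbers in brackets count the regions of a gene in coordinate order. The summits of 24 regions lie within 100 bp of a start site, and the 5 farthest upstream, of Chd2, Chd9, Ino80, Ep400 and 1 region of Chd7, lie 200 to 692 bp away.

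The height of a peak is given as its fold, which MACS2 forms within each library from the summit fragments and the background expected there. A fixed constant is added to both before they are divided. The constant lowers the fold more where depth is low, so folds printed for single libraries also depend on their depth. Over promoter regions in all 8 lists, the median folds of Brg1fl/+ libraries 1 to 4 were 13.9, 13.5, 10.7 and 12.3. In Brg1fl/fl libraries 1 to 4 they were 11.4, 9.44, 11.3 and 11.4, and the cause of these differences was not tested. Across the 22 regions in all 8 lists the fold ran from 5.72 to 19.3, with a median of medians of 11.9 against 11.7 for all promoter regions in all 8 lists. The 13 partly detected regions had folds of 3.88 to 14.6 where they were listed. Fragments at the summit, recovered from the fold and the p-value, were 11 to 198 in the 22 regions.

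Among ISWI genes the ATPase Smarca5, Baz1b (WSTF, its partner in the WICH complex) and Bptf (the large subunit of NURF) had a promoter region in all 8 lists. At Bptf (chr11:107131910-107132402, minus strand) the folds in Brg1fl/+ libraries 1 to 4 were 15.0, 11.9, 10.8 and 12.2, and in Brg1fl/fl libraries 1 to 4 they were 10.7, 9.43, 9.12 and 12.6. At Baz1b (chr5:135186763-135187578, plus strand) they were 12.9, 12.3, 11.4 and 9.43 in Brg1fl/+ and 11.0, 10.9, 11.9 and 10.3 in Brg1fl/fl. The groups overlapped at both genes. Baz2b, a bromodomain protein of the same family, shares a promoter with the ubiquitin ligase gene March7 and was listed in 7 libraries, at folds of 3.95 to 10.6, and not in Brg1fl/fl library 2. Smarca1, the second ISWI ATPase, had no region within 19434 bp of a start site, and the nearest region was in 2 lists. The regions of Baz1a (ACF1), Baz2a (TIP5 of the nucleolar NoRC complex) and the histone-binding Rsf1 touched the window, but their centres lay outside it, and they are described below.

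The CHD genes outside NuRD had 10 regions at 6 of the 7 genes. The region of Chd2, a chromodomain ATPase, was the highest of all members, with folds of 18.1, 18.6, 16.8 and 16.8 in Brg1fl/+ libraries 1 to 4 and 19.3, 13.7, 18.3 and 17.1 in Brg1fl/fl libraries 1 to 4. Its lowest value, 13.7 in Brg1fl/fl library 2, was above the median of every other member region except those of Ep400, Gatad2b, Mbd2 and the upstream promoter of Gatad2a, and the genotypes overlapped. Chd1, a related ATPase associated with transcription elongation, had folds of 8.75 to 14.0. Chd8, Chd9 and Chd7, of the subfamily that also holds Chd6, had more than 1 promoter region each. The region at the upstream end of Chd8 (chr14:52257527-52258029, minus strand) was in all 8 lists at 9.42 to 15.6. A second Chd8 region, at a start site inside the gene (chr14:52244174-52244963), had folds of 11.2 and 12.5 in Brg1fl/+ libraries 1 and 2 and of 9.53, 6.64, 7.92 and 6.90 in the 4 Brg1fl/fl libraries, and was not listed in Brg1fl/+ libraries 3 and 4. Of 4503 promoter regions with a fold of at least 10 in both Brg1fl/+ libraries 1 and 2, 659 (14.6%) were missing from library 3 and 211 (4.69%) from libraries 3 and 4 alike, so such absences also occurred at other promoters.

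At Chd9 the middle of 3 regions (chr8:90908015-90909021, plus strand), which also holds the start of the noncoding gene Gm6658, was in all 8 lists at 10.2 to 14.6. The region at the annotated 5′ end of the gene was listed in Brg1fl/+ library 1 (10.5) and Brg1fl/fl libraries 3 and 4 (4.14 and 4.54), and the most downstream one in Brg1fl/+ libraries 1 and 2 (7.39 and 3.88). Chd7 had its main promoter (chr4:8690034-8691057) in Brg1fl/+ libraries 1 and 2 (8.15 and 7.03) and Brg1fl/fl libraries 1, 3 and 4 (6.47, 5.45 and 5.89), and a weak intronic region in Brg1fl/+ libraries 1 and 2 (4.55 and 5.08). These partly listed regions were low where they were found, apart from library 1 at Chd9, and each was present in Brg1fl/+ library 1, the longest list.

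NuRD genes had 9 regions at 8 of 10 genes. Gatad2a, a zinc finger subunit that links the deacetylase and remodeling parts of the complex, had both of its promoter regions in all 8 lists. At the upstream one (chr8:69995913-69996808, minus strand) the folds were 15.0, 15.3, 15.2 and 14.6 in Brg1fl/+ and 16.2, 13.9, 14.2 and 15.4 in Brg1fl/fl, and at the downstream one (chr8:69974128-69974675) they were 16.2, 15.0, 13.9 and 12.4 and 11.9, 11.8, 12.9 and 11.9. Its paralog Gatad2b had folds of 13.5 to 15.9. The methyl-DNA protein Mbd2 was at 10.7 to 15.4, its relative Mbd3, whose binding does not require DNA methylation, at 8.92 to 13.0, and the histone chaperone Rbbp7 at 9.87 to 16.1. Mbd3 held 45 to 198 fragments at its summit, the most of the members in 6 of the 8 libraries (Ep400 held the most in Brg1fl/fl libraries 1 and 2), in a region 1117 bp wide. The ATPase Chd4 was the lowest of the NuRD promoters listed in all 8 libraries, with folds of 9.44, 8.97, 6.89 and 10.6 in Brg1fl/+ and 8.39, 6.32, 10.1 and 7.56 in Brg1fl/fl. Of the MTA scaffold genes, Mta2 was in 7 lists at 8.13 to 14.6 and not in Brg1fl/+ library 3, Mta1 was in Brg1fl/+ libraries 1 and 2 alone (5.60 and 4.48), and Mta3 had no region within 35376 bp. Chd3, the alternative ATPase, had none in its window, and a region in all 8 lists lay 1566 bp from its nearest start site.

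The INO80, SRCAP and TIP60 complexes had regions at 9 of 12 genes. Ep400, the ATPase of the TIP60 complex, stood in the upper part of each list. Its folds were 15.2, 15.6, 16.2 and 15.3 in Brg1fl/+ libraries 1 to 4 and 16.4, 15.0, 15.8 and 13.9 in Brg1fl/fl libraries 1 to 4, and ordered by q it ranked within the top 4.29% of the peaks of every library. Ruvbl2, an AAA ATPase shared by these complexes, was at 8.61 to 14.6 in all 8 lists with the start of Gys1 135 bp away, whereas its partner Ruvbl1 had no region within 18799 bp. Of the INO80 subunits, Ino80c was in all 8 lists at 5.72 to 13.2 and Ino80d at 8.76 to 11.5, Ino80e (sharing its promoter with Hirip3) was in 4 lists at 4.19 to 8.23, and Ino80b had none in its window, the nearest region lying 3011 bp away in 7 lists. The actin-related proteins Actr6 (of SRCAP) and Actr8 (of INO80) were in 3 and 5 lists at 4.86 to 10.1 and 4.29 to 7.32. The ATPases Ino80 and Srcap were in all 8 lists and are described with the comparison of genotypes.

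Of the other SNF2-type ATPases, Smarcad1 was in all 8 lists at 6.50 to 12.7. Hells, which is required for DNA methylation at repeats, was in library 1 of each genotype (8.85 in Brg1fl/+ and 4.86 in Brg1fl/fl), and Atrx, which places a histone variant at heterochromatin, was in Brg1fl/+ libraries 1 and 2 and Brg1fl/fl library 1 (6.60, 4.43 and 4.49). Ordered by q from the strongest, these peaks stood 52.7% to 97.2% of the way down their lists.

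**Figure D2:**
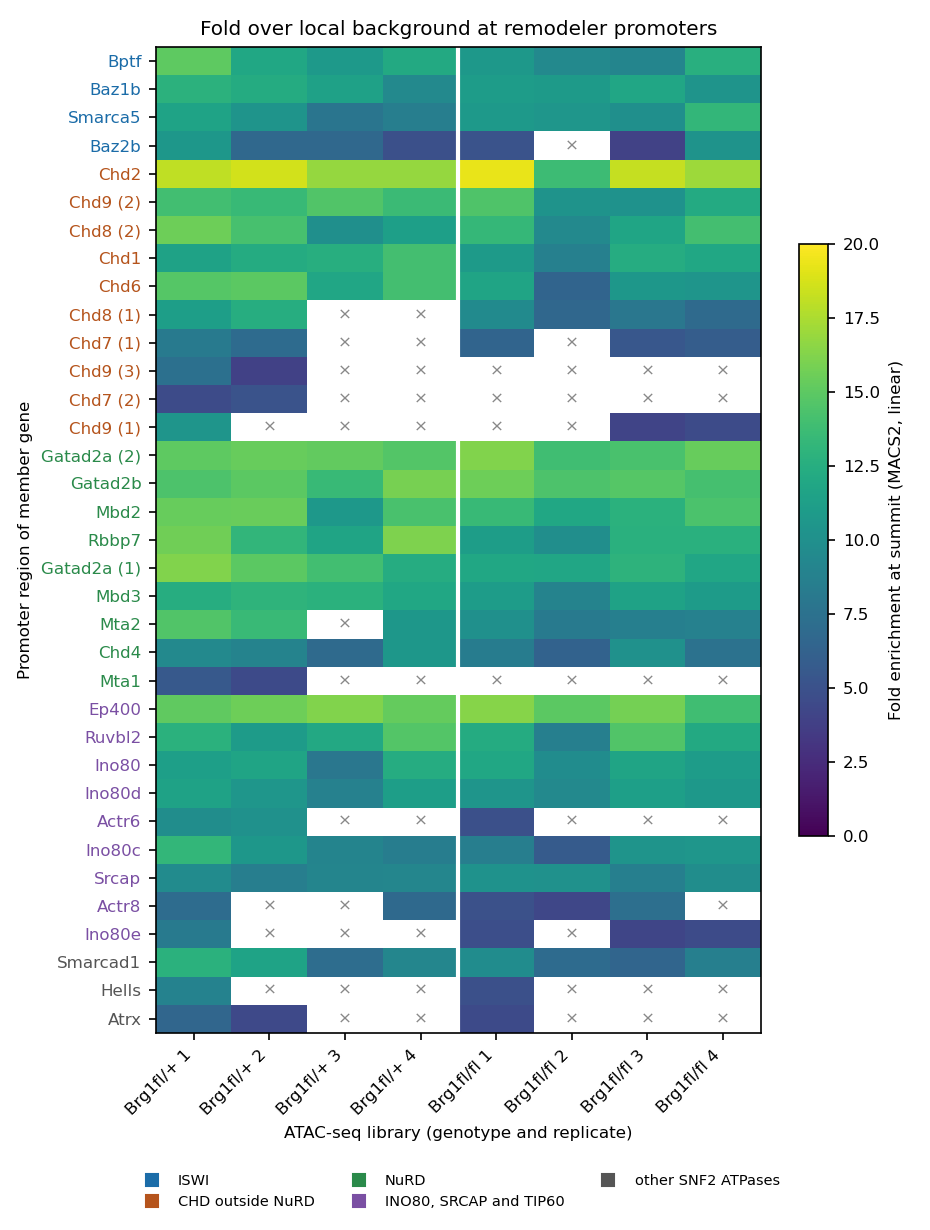
Fold over local background (colour, linear MACS2 ratio) of the 35 member regions (rows, grouped by family in label colours and ordered by median fold) in the 8 libraries (columns, Brg1fl/+ left of the white line, Brg1fl/fl right). Crosses mark libraries that list no peak, and bracketed numbers count the regions of a gene in coordinate order. Chd2 is highest, and crosses fall mostly on rows of low fold in both genotypes, most often in Brg1fl/+ libraries 3 and 4 and Brg1fl/fl library 2.

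For 5 more genes a region overlapped the window with its centre farther downstream, which raised the count to 35 of 40 genes (87.5%, against 47.8% of protein-coding genes), 24 of them in all 8 lists. Rsf1 (chr7:97579478-97580556) was then in all 8 lists at 5.98 to 10.6, Chd1l (ALC1, an ATPase activated by poly-ADP-ribose) at 8.35 to 14.1 and Actr5 at 6.50 to 12.3. Baz1a was in 6 lists at 4.30 to 6.62 and Baz2a in Brg1fl/+ library 1 alone (4.57). Smarca1, Chd3, Mta3, Ino80b and Ruvbl1 had no region by either count.

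The first comparison of genotypes asked in which libraries a promoter was listed. Brg1fl/+ libraries 1 to 4 listed 35, 31, 23 and 25 of the 35 member regions, and Brg1fl/fl libraries 1 to 4 listed 31, 25, 29 and 28. The mean was 28.5 ± 5.51 (SD, n = 4) in Brg1fl/+ and 28.25 ± 2.50 (SD, n = 4) in Brg1fl/fl, so the means differed by less than their spread. Of the 13 partly detected regions 6 were in fewer Brg1fl/fl than Brg1fl/+ lists (Baz2b, 1 region each of Chd7 and Chd9, Mta1, Actr6 and Atrx) and 6 in more (1 region each of Chd7, Chd8 and Chd9, Mta2, Ino80e and Actr8), while Hells was in 1 list of each. The members' share in fewer Brg1fl/fl lists was 17.1%, where 36.7% of all promoter regions were, and the share in more was 17.1%, against 10.9%. The even split depended on the peaks admitted: past a −log10 q of 5 there were 7 in fewer and 3 in more, past a −log10 q of 10 there were 9 and 1, with lists cut to equal length 1 and 3, and with 50% of a region covered 5 and 17. The widest gap was 2 libraries, at Chd7, Chd8, Chd9, Mta1 and Ino80e. None of the 13 passed Fisher's exact test (two-sided, 4 against 4 libraries, smallest p among them 0.429, adjusted p = 1), nor did any of the 5347 partly detected promoter regions after adjustment, where the smallest p this design allows is 0.0286 and 15 regions had a p under 0.05. Member regions were listed more often than promoter regions in general in each library, as the plot of detection shows.

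**Figure D3:**
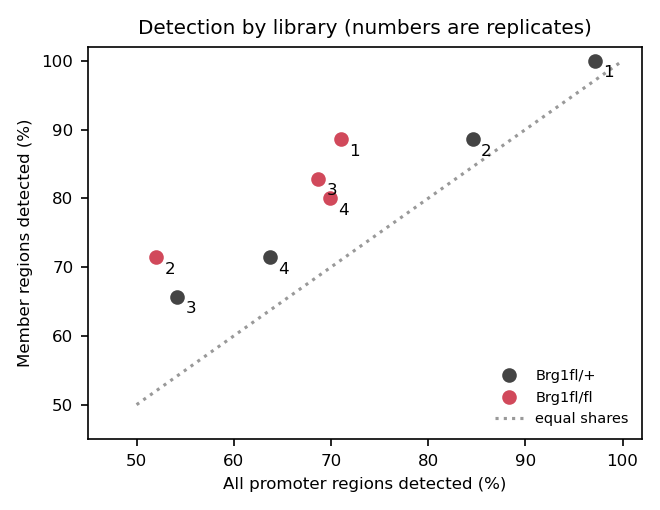
Percent of the 35 member regions listed in a library (y axis) against the percent of all 9330 promoter regions listed (x axis). Each point is a library, coloured by genotype and numbered by replicate, and the dotted line marks equal shares. All 8 points are above the line, from 65.7% of member regions in Brg1fl/+ library 3 to all of them in library 1.

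The second comparison asked whether the height of the promoters differed. The log2 fold of the 4593 regions in all 8 lists was quantile normalized, so that each library has the same distribution, and fitted with limma. Across all of them 140 (3.05%) were lower and 127 (2.77%) higher in Brg1fl/fl at an adjusted p under 0.05 (Benjamini-Hochberg), and among the 3983 promoters 122 (3.06%) were lower and 85 (2.13%) higher. Over all 4593 regions these counts were 135 lower and 4 higher without scaling. Without Brg1fl/+ replicate 2 they were 42 lower and 37 higher over 4618 regions. Of the 22 member regions 1 was higher (4.55%) and 0 were lower in limma. An unadjusted p under 0.05 was reached by 3 (13.6%, against 22.2% of the promoters). The differences ran from -0.34 to 0.42 on the log2 scale, with SEs of 0.0797 to 0.155. By sign 14 were above 0 and 8 below, and the median was 0.0897, against -0.00392 over the promoters. The median size without sign was 0.117, against 0.138.

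**Figure D4:**
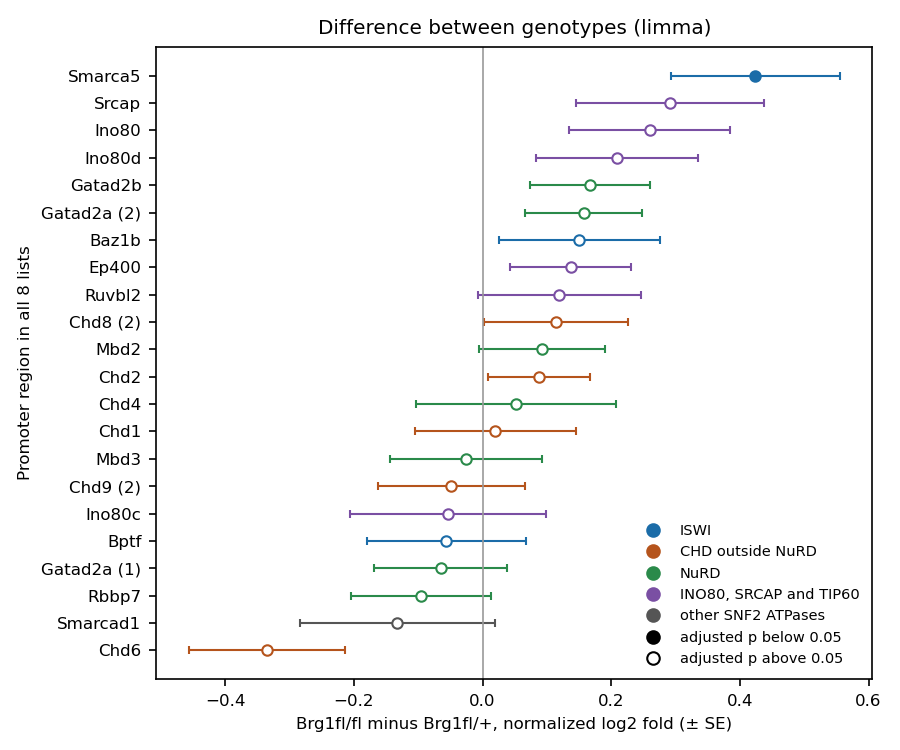
Difference between Brg1fl/fl and Brg1fl/+ in normalized log2 fold (x axis, points, with bars of ± 1 SE from limma, 4 libraries a genotype) at the 22 member regions in all 8 lists, in order of the difference and coloured by family. The filled point, Smarca5, is the region with an adjusted p under 0.05, and Chd6 lies farthest to the lower side.

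Smarca5, the ATPase of most ISWI complexes, had the largest difference. At its promoter (chr8:80739023-80739852, minus strand, summit 33 bp upstream of the start site, the first of the sequences above) the deposited folds were 11.6, 10.4, 7.75 and 8.57 in Brg1fl/+ libraries 1 to 4 and 10.7, 10.5, 9.99 and 13.2 in Brg1fl/fl libraries 1 to 4, and overlapped. After quantile normalization the log2 folds were 3.24, 3.13, 3.12 and 3.05 in Brg1fl/+ and 3.45, 3.67, 3.36 and 3.75 in Brg1fl/fl, so that all 4 Brg1fl/fl values were above the highest of Brg1fl/+. The means were 3.14 ± 0.076 and 3.56 ± 0.18 (SD, n = 4), a difference of 0.42 (SE 0.131, limma adjusted p = 0.049) or 1.34 times as a ratio of folds. It was 0.38 between libraries 1 and 2 of the genotypes and 0.47 between libraries 3 and 4. The adjusted p was just under the threshold and ran from 0.0360 to 0.431 over 28 alternatives, 7 of which kept the call. These 7 include any base of a region in the window, which leaves the fit at Smarca5 unchanged. The call was lost with any 1 library left out except Brg1fl/fl replicate 3 (differences of 0.36 to 0.47 where lost), and without scaling the difference was 0.23.

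Chd6, a CHD ATPase, was the other member region whose genotypes did not overlap, which makes 2 of 22 (9.09%), against 12.3% of the promoters. Its folds (chr2:161108835-161109532, minus strand) were 14.8, 15.0, 11.8 and 14.0 in Brg1fl/+ and 11.7, 6.46, 10.6 and 10.5 in Brg1fl/fl. The normalized log2 folds were 3.66, 3.72, 3.68 and 3.74 in Brg1fl/+, close together, and 3.57, 3.02, 3.45 and 3.42 in Brg1fl/fl, with library 2 far under the rest. The difference of -0.34 (SE 0.122) did not pass in limma (adjusted p = 0.092) and was -0.20 without Brg1fl/fl replicate 2. On the fragments recovered at the summit, in place of the fold, it was -0.70 (limma adjusted p = 0.0032), and it passed with each of the 8 libraries left out in turn (-0.76 to -0.53). These were 111, 68, 28 and 45 fragments in Brg1fl/+ libraries 1 to 4 and 45, 13, 39 and 38 in Brg1fl/fl libraries 1 to 4, before scaling.

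The ATPases of the INO80 and SRCAP complexes came next among the INO80 genes. Ino80 (chr2:119477331-119478350, minus strand) had folds of 11.3, 11.7, 7.92 and 12.4 in Brg1fl/+ and 11.9, 9.74, 11.7 and 11.1 in Brg1fl/fl. On the normalized log2 scale the 4 Brg1fl/fl values (3.60, 3.57, 3.59 and 3.50) lay close together, and 3 of the Brg1fl/+ values (3.19, 3.31, 3.15 and 3.56) were under them, while library 4 was among them. The difference was 0.26 (SE 0.125, limma adjusted p = 0.207). Srcap (chr7:127511897-127513035, plus strand) had folds of 9.66, 8.59, 9.12 and 9.18 in Brg1fl/+ and 10.2, 10.1, 8.63 and 9.77 in Brg1fl/fl, and a difference of 0.29 (SE 0.146, limma adjusted p = 0.230) that was 0.59 between libraries 1 and 2 and -0.01 between libraries 3 and 4. On the recovered fragments both passed, with differences of 0.49 for Ino80 (limma adjusted p = 0.0198) and 0.55 for Srcap (limma adjusted p = 0.0100), whereas Smarca5 did not (0.40, limma adjusted p = 0.101). The fragments at Ino80 were 74, 60, 20 and 47 in Brg1fl/+ and 81, 30, 69 and 63 in Brg1fl/fl, and at Srcap 92, 43, 29 and 35 and 80, 41, 54 and 66. With 1 library left out the call on fragments was lost at Ino80 without Brg1fl/+ replicate 1 or 3 or Brg1fl/fl replicate 1 or 3 (limma adjusted p up to 0.0778), and at Srcap without Brg1fl/+ replicate 2 (limma adjusted p = 0.0511). Smarca5 thus passed on the fold, and Chd6, Ino80 and Srcap on the fragments, and the cause of this difference was not tested. More regions passed on the fragments in general. Of all 4566 shared regions 212 were lower and 239 higher, beside 1 and 2 of the 22 member regions.

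**Figure D5:**
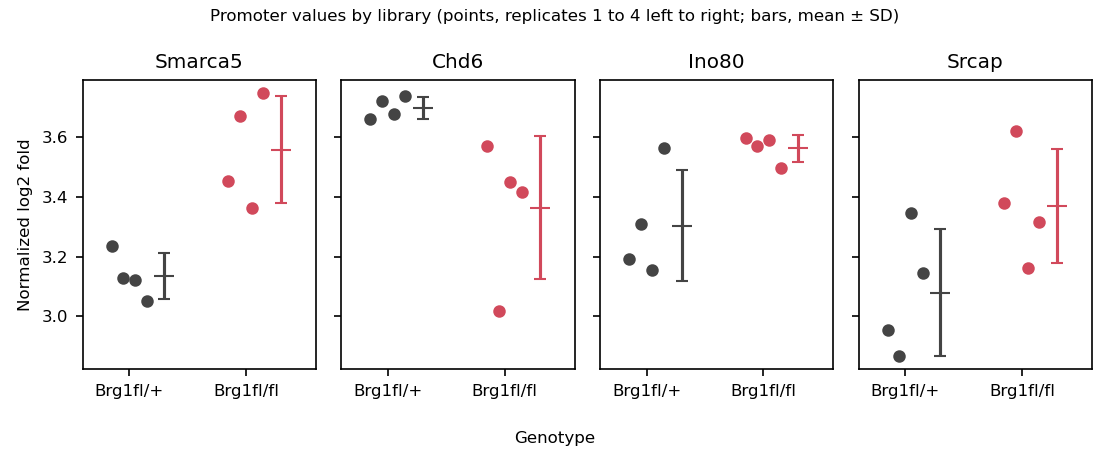
Normalized log2 fold (y axis, shared by the panels) of the promoters of Smarca5, Chd6, Ino80 and Srcap in each library, with Brg1fl/+ in grey and Brg1fl/fl in red, points for replicates 1 to 4 from left to right and the mean ± SD (n = 4) beside them. The genotypes are apart at Smarca5 and Chd6 and overlap at Ino80 and Srcap.

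The other member regions with the smallest p-values had differences that did not pass: 0.17 at Gatad2b, 0.16 at the upstream promoter of Gatad2a, 0.21 at Ino80d, 0.14 at Ep400, 0.15 at Baz1b and 0.09 at Chd2, with limma adjusted p-values of 0.284 to 0.539. The NuRD ATPase Chd4 differed by 0.05 (SE 0.155, limma adjusted p = 0.869) and the downstream promoter of Gatad2a by -0.06 (SE 0.103, limma adjusted p = 0.742). By family the median difference was 0.15 over 3 ISWI regions, 0.020 over 5 CHD regions, 0.052 over 7 NuRD regions and 0.17 over 6 regions of the INO80, SRCAP and TIP60 genes, and -0.13 at Smarcad1, where the CHD and NuRD medians were below 0 on recovered fragments (-0.097 and -0.0095) and the CHD median was also below 0 with median centring (-0.0059). Without scaling the median of all 4593 regions moved to -0.17 and that of the members to -0.089, and the ISWI, CHD, NuRD and INO80 group medians were -0.050, -0.21, -0.15 and -0.017. The regions that overlapped the window alone did not pass either, at 0.33 for Rsf1 (limma adjusted p = 0.174), 0.26 for Chd1l (limma adjusted p = 0.230) and -0.15 for Actr5 (limma adjusted p = 0.540).

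A separate list of 38 genes tied to the same complexes was also looked at, of which 37 were in the annotation. It held subunits, partners and the histone variant genes H2afz and H2afv, so its shares are not those of subunits alone. A promoter region was found for 32 (86.5%, against the 43.1% of all protein-coding genes) and was in all 8 lists for 22 (59.5%, against 20.6%), among them the deacetylases Hdac1 and Hdac2, the acetyltransferase Kat5, its partner Trrap and the Atrx partner Daxx. Of 22 regions tested 1 was higher in Brg1fl/fl (4.55%, against 2.13% of the shared promoters) and 0 were lower in limma (against 3.06%), and 4 had an unadjusted p under 0.05 (18.2%, against 22.2%). The region called was that of Yy1, a DNA-binding factor that joins INO80, with folds of 9.27, 10.5, 10.0 and 11.2 in Brg1fl/+ and 13.1, 12.8, 11.2 and 12.8 in Brg1fl/fl and a difference of 0.48 (SE 0.131, limma adjusted p = 0.0285), and it was called in 11 of 19 alternatives (limma adjusted p 0.0170 to 0.214). Among 23 BAF and PBAF genes, 19 had a promoter region (82.6%) and 10 had one in all 8 lists (43.5%). Of 10 regions tested the PBAF bromodomain gene Brd7 was higher (0.34, SE 0.104, limma adjusted p = 0.0460) and 0 were lower, so that 10.0% were called higher, against 2.13% of the shared promoters. An unadjusted p under 0.05 was reached by 6 (60%, against 22.2%), and no test was run on this list as a whole. Brd7 was called in 7 of 19 alternatives (limma adjusted p 0.00918 to 0.527).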

How the data were processed

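ATAC-seq of 4 Brg1fl/+ and 4 Brg1fl/fl libraries was analysed, grouped by the genotype and replicate number in the sample labels. The authors mapped reads with Bowtie2 (mm10) and ran MACS2 on every library by itself. Their versions and options, the treatment of duplicates and whether read ends were moved for Tn5 are not given in the sources used here. The deposited lists give, for each peak, a fold, −log10 p and −log10 q values, and a display score, which was not used. The fold divides summit fragments by local background after a fixed constant is added to both. The lists hold no read counts, and 8 RNA-seq libraries were not analysed here.

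Peaks that touched or overlapped in any of the 8 lists were merged into regions. A region counted as detected where a peak overlapped it by at least 1 bp, took the fold of the peak with the highest −log10 q, and was assigned to a start site (GENCODE vM21, GRCm38) by its centre. Summit fragments were recovered from the fold and −log10 p to within 0.002 for 99.8% of peaks. The log2 folds of regions in all 8 lists were quantile normalized and tested with limma 3.58.1 (trended, robust, two-sided) over all 4593 regions with Benjamini-Hochberg adjustment at 0.05. This replaced the authors' comparison of read coverage with DESeq2. Precision was limited by 4 libraries per genotype and by depth. Libraries of a genotype differed by about the counting error of their summits and were kept as 4 samples, as the labels number them.

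The members, gene lists and motifs were chosen with earlier results of these data known. Named regions were those past the limma threshold or, with under 10 of these, the 10 with the smallest p, those whose detecting libraries differed by 2 or more between genotypes, and the 2 highest and 2 lowest folds of each family. Others are named for their number of libraries. The value of 1 gene is not reported here. Sequences of 8 regions were printed. Alternatives were a stricter −log10 q (5 or 10), equal list lengths, peaks covering 50% of a region, any base of a region in the window, start sites of protein-coding transcripts, other scalings, recovered fragments, percent rank, a median fold of at least 5, libraries left out in turn or joined in pairs, and the replicate number as a block. Any base of a region in the window for the limma fit, and leaving out libraries on recovered fragments, were chosen after seeing the data. The merging of peaks, the assignment to start sites, the recovery of summit fragments and the limma fit were also tested on simulated data. R 4.3.3 and Python 3.11.15 with pysam 0.24.0 were used.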

Additional observations from a re-analysis of the deposited data

Results flagged for a closer look

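Among 52 groups of 4 libraries tested for a value far from the rest (by the gap to the nearest library as a share of the range), 2 were found, and chance flags about 1 in 20 groups. At Mbd2 the normalized log2 fold of Brg1fl/+ library 3 was 3.55, whereas the other Brg1fl/+ libraries were at 3.74 to 3.77. At Chd4 that of Brg1fl/+ library 4 was 3.34, whereas the others were at 2.93 to 2.97.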

How the results depend on the processing

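In 93 of 136 recomputed counts the value was within 1.5 times that reported. The 22 regions and 21 genes in all 8 lists both fell to 10 with 50% of a region covered, which also put 17 member regions in more Brg1fl/fl lists. That number was 3 for peaks past a −log10 q of 5 (7 in fewer), 1 past a −log10 q of 10 (9 in fewer), and 3 when lists were cut to equal length, which left 1 in fewer. Shared regions called lower and higher were 78 and 55 with 50% covered, 212 and 239 on recovered fragments, 46 and 29 by percent rank, and 73 and 49 with libraries joined in pairs, and 4 were called higher without scaling. With 1 library left out they were 42 to 161 lower and 37 to 186 higher. Those lower came to 55, 42 and 85 without Brg1fl/+ replicates 1, 2 and 4 and 68 without Brg1fl/fl replicate 1, and those higher to 40, 37 and 74, and to 46, 80, 61 and 59 without Brg1fl/fl replicates 1 to 4. The lists of shared regions differ in length between these fits, and the cause of the other changes was not tested.

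Member regions called higher were 0 with 50% covered, without scaling, by percent rank and with libraries in pairs, and 0 to 1 with a library left out. On recovered fragments 2 of 22 were called higher and 1 lower, against 239 and 212 of 4566 shared regions. The Smarca5 difference was above 0 in all 28 alternatives, recovered fragments with a library left out among them, and was called in 7. Both counts include any base of a region in the window, which repeats the main fit at Smarca5. Without scaling the differences at the upstream promoter of Gatad2a (-0.014), Ino80d (-0.0064), Ep400 (-0.028), Baz1b (-0.050) and Chd2 (-0.052) were below 0. On recovered fragments those at Gatad2b (-0.0095), Gatad2a (-0.022) and Chd2 (-0.097) were below 0, and by percent rank, which is on a scale of its own, those at Gatad2a (-0.17) and Chd2 (-0.50). None of these was called.

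Replicate numbers are shared by the genotypes. Same-numbered libraries did not deviate together (correlations of -0.071 to 0.0076) and were not treated as pairs in the main fit. Since libraries of a genotype varied little beyond counting error, these correlations cannot show whether the libraries were paired. With the replicate number as a block 92 shared regions were lower, 70 were higher and 0 member regions were called higher, with Smarca5 at a limma adjusted p of 0.0783.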
